A study of Homo sapiens with 6 samples.

Results

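The death receptors and their adaptors are 10 genes, chosen by gene symbol from the deposited expression table and compared between Hep-G2 cells with a hairpin against CLGN and control cells. They comprise the receptors FAS, TNFRSF10A, TNFRSF10B, TNFRSF10D, TNFRSF1A and TNFRSF21, the adaptors FADD and TRADD, the kinase RIPK1 and the caspase inhibitor CFLAR. All 10 had a row among the 58735 genes of the table. Levels are in FPKM, that is, fragments counted on a gene relative to its length and to the library size. A gene was tested where at least 3 libraries had at least 1 FPKM, which 13074 genes and 9 of these 10 passed, FAS being the exception.

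Hep-G2 is an established human liver cancer line, which the labels call hepatocytes. Every culture carried a lentiviral short hairpin RNA under puromycin selection, directed against CLGN in the sh-CLGN group (n = 3 libraries, genotype label CLGN knock down) and a negative control in the sh-NC group (n = 3 libraries, genotype label WT). Calmegin, the protein made from CLGN, is an endoplasmic reticulum chaperone, and the comparison asks how its depletion bears on apoptosis and NF-kB signaling. Each group had 1 hairpin sequence, so an effect of the hairpin and the loss of CLGN cannot be told apart. Nothing in the sources used here says that the libraries came from separate cultures, or whether the lines were clones or pools. The p-values thus set the group difference against a spread between libraries of a group that may be technical.

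Death receptors are members of the TNF receptor superfamily that carry a death domain on their cytoplasmic side. FAS and the TRAIL receptors TNFRSF10A (DR4) and TNFRSF10B (DR5) recruit FADD, which brings in the initiator caspases CASP8 and CASP10. TNFRSF1A (TNFR1) recruits TRADD and RIPK1, from which either NF-kB signaling and survival or cell death can follow. CFLAR (FLIP) binds FADD and CASP8 and restrains caspase activation, while TNFRSF10D (DcR2) binds TRAIL but has a truncated death domain. TNFRSF21 (DR6) is a further death domain receptor. Liver cells are known for their sensitivity to FAS signaling, and Hep-G2 is widely used to study TRAIL.

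The 6 libraries held 14955816 to 16244639 reads each. On the log2(FPKM + 1) scale used throughout, the correlation over tested genes (no independent replicates themselves) was 0.988 to 0.992 within groups and 0.937 to 0.945 between them. CLGN itself was 24.1, 21.0 and 26.1 FPKM in the sh-NC libraries and 9.48, 8.88 and 8.60 FPKM in the sh-CLGN libraries, where values are always listed in the order of replicates 1, 2 and 3. This left 37.8% of the control level, with a log2 fold change of -1.31 (SE 0.081, limma adjusted p = 8.35e-06). Of 8 hepatic marker genes, 8 were tested, and their summed level was 6887 to 7128 FPKM in sh-NC and 7113 to 7577 FPKM in sh-CLGN. Single markers moved in opposite directions, since ALB (albumin) was at 53.6% of its control mean and HNF4A, SERPINA1 and APOB were lower in each sh-CLGN library, while AFP, TTR, FGB and APOA1 were higher in each. The summed level of 8 fibroblast markers was 7.17 to 8.51 FPKM in sh-NC against 48.5 to 49.9 FPKM in sh-CLGN. Of these, 5 were tested. COL1A1, COL1A2, COL3A1, LUM, PDGFRA and PDGFRB were higher in each sh-CLGN library, COL1A2 with a mean of 4.203 against 38.7 FPKM, whereas DCN and THY1 had at most 3 reads in each. The part of these genes in the results below was not tested.

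RIPK1 and TNFRSF10B were the members that fell most, to 39.6% and 48.0% of their control levels. TNFRSF1A fell to 65.8%, while CFLAR, TNFRSF10A and TNFRSF21 fell by less and FADD rose to 121%. TNFRSF10D and TRADD did not pass the test. In limma, with Benjamini-Hochberg adjustment over all 13074 genes and an adjusted p of at most 0.05, 6 of the 9 tested members were thus lower and 1 was higher in sh-CLGN. Over all tested genes the same threshold called 39.0% lower and 26.7% higher, so a fall in itself was common in these libraries. When a log2 fold change of 1 or more in size was required too, 2 of the 9 members were lower, against 3.19% of all tested genes. The median log2 fold change was -0.27 over the 9 tested members and -0.08 over all tested genes. In bulk RNA, fewer cells with a transcript and less of it per cell cannot be told apart.

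The split of directions over all genes depended on the scaling. Of the genes called, 40.7% were higher in sh-CLGN with the deposited values, 52.2% after rescaling to TPM and 59.2% after scaling by read totals. These scalings raised the median of all tested genes by 0.11 and 0.16 on the log2 scale. Members with changes near that size gained or lost calls between settings, as given for each of them. The falls of RIPK1, TNFRSF10B and TNFRSF1A kept their direction and passed the adjusted p threshold under each of the 19 alternatives tried.

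**Figure D1:**
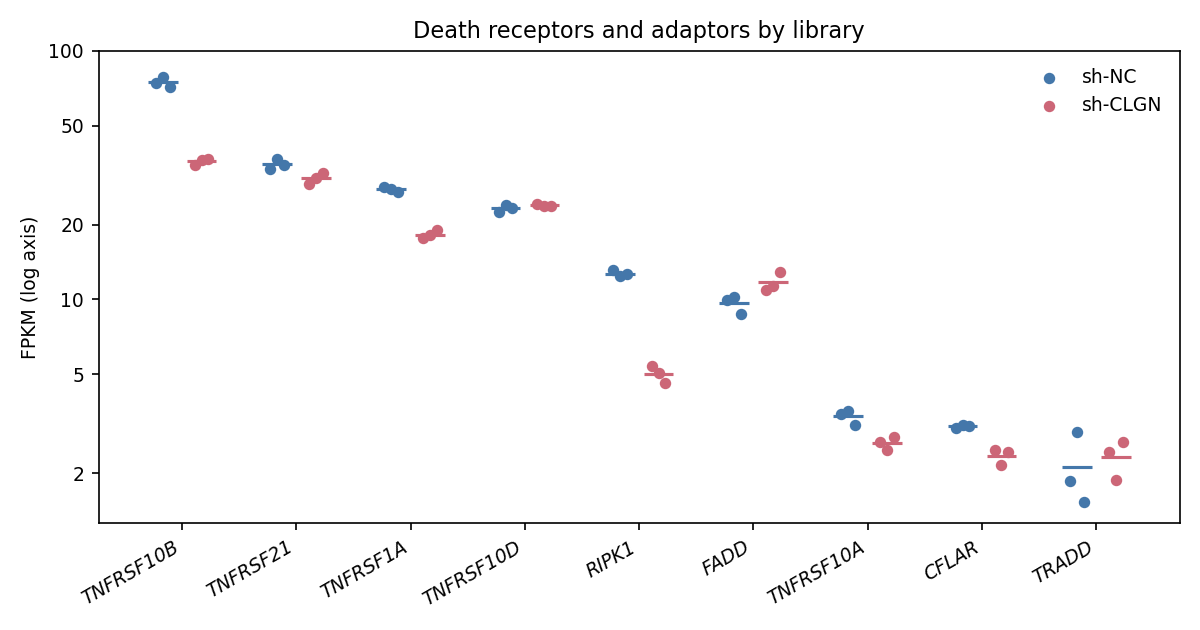
Expression of the 9 tested members in each library. Points are libraries (FPKM, log axis), lines are group means, sh-NC in blue and sh-CLGN in red (n = 3 each). The groups lie apart for TNFRSF10B, TNFRSF21, TNFRSF1A, RIPK1, FADD, TNFRSF10A and CFLAR and overlap for TNFRSF10D and TRADD.

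The plot of levels by library shows groups that do not overlap for 7 of the 9 tested members, which was also so for 70.2% of all tested genes. Among these, the drop was longest for RIPK1, followed by TNFRSF10B.

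The receptors for TRAIL, the ligand encoded by TNFSF10, are neighbours on chromosome 8 and were each measured at a different level. TNFRSF10B (ENSG00000120889, chr8:23020133-23069179, GRCh38, minus strand) had the highest FPKM of the members in both groups. It was 74.4, 78.2 and 71.7 FPKM in the sh-NC libraries and 34.6, 36.3 and 36.7 FPKM in the sh-CLGN libraries. All 3 sh-CLGN libraries lay far below the lowest sh-NC library. The mean went from 74.7 ± 3.26 to 35.9 ± 1.14 FPKM (SD, n = 3), a log2 fold change of -1.04 (SE 0.051, limma adjusted p = 3.38e-06). It rested on 3025 to 5886 reads per library, and 2.75% of all tested genes had a change at least as far below 0. Its value sat close to the fold threshold, ranged from -1.07 to -0.75 over the alternatives and was short of that threshold in 5 of them.

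TNFRSF10A, the other TRAIL receptor with a full death domain, was much lower in FPKM than TNFRSF10B. At chr8:23190452-23225126 on the minus strand, it was 3.47, 3.57 and 3.13 FPKM in the sh-NC libraries and 2.68, 2.48 and 2.79 FPKM in the sh-CLGN libraries, from 120 to 154 reads. The sh-CLGN libraries again lay below those of sh-NC, by a small margin. The log2 fold change was -0.27 (SE 0.073, limma adjusted p = 0.0122), which 34.4% of tested genes matched or passed in the downward direction. The call was lost in 5 of the 19 alternatives, among them the one without sh-CLGN replicate 2, where the change was -0.23, and those with scaling by read totals (-0.12) and GC correction (-0.11).

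The decoy receptor TNFRSF10D (chr8:23135588-23164030, minus strand) was 22.4, 24.01 and 23.3 FPKM in the sh-NC libraries and 24.1, 23.8 and 23.8 FPKM in the sh-CLGN libraries. The groups overlapped. Its log2 fold change was 0.04, with a 95% interval of -0.07 to 0.15 (limma adjusted p = 0.488). Under 5 other scalings or corrections it was called higher, at 0.13 to 0.29. TNFRSF10C, the decoy receptor without a death domain, had 0 to 3 reads per library, at or under the floor of 3 reads in each library.

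The make-up of the TRAIL receptor transcripts within each library restates the values above in a form that no scaling of whole libraries can change, and adds no independent support to them. TNFRSF10D made up 22.4%, 22.7% and 23.7% of the summed FPKM of the 3 receptors in the sh-NC libraries and 39.3%, 38.0% and 37.6% in the sh-CLGN libraries. The share went from 22.9% ± 0.724 to 38.3% ± 0.887 (SD, n = 3). The ratio of TNFRSF10B to TNFRSF10A went from 22.1 ± 0.747 to 13.6 ± 0.939. Neither measure overlapped between groups. A two-sided exact permutation test gave p = 0.1 for each, the smallest that 3 against 3 libraries allow, and 0.1 after adjustment over the 4 ratios computed.

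**Figure D2:**
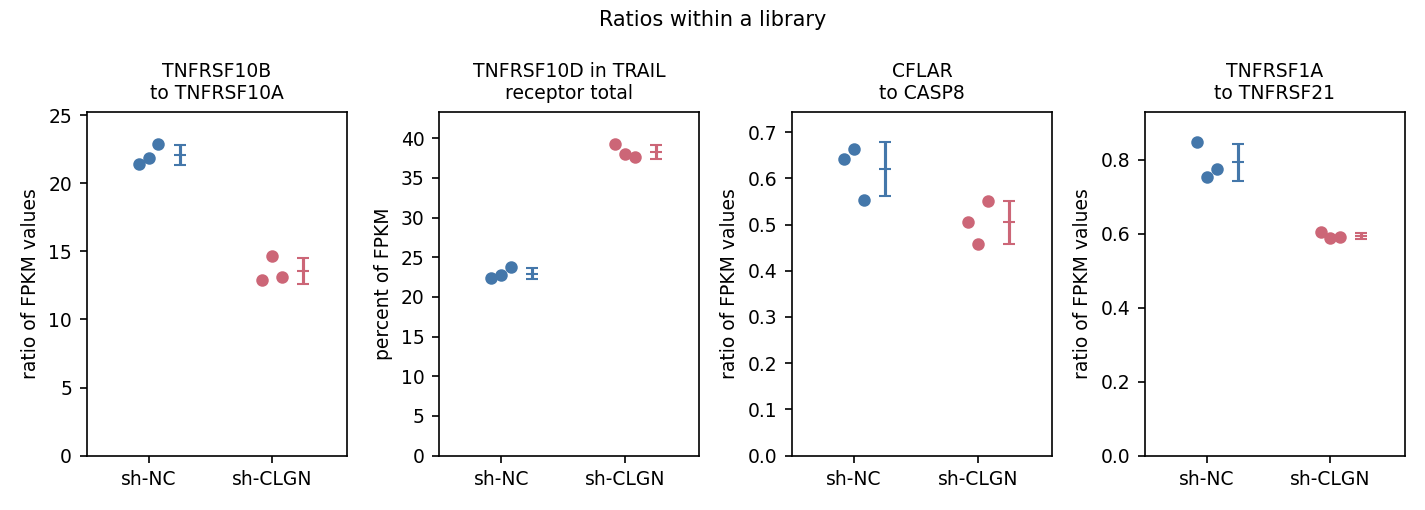
Ratios of FPKM values within each library for 4 combinations of receptor and inhibitor transcripts. Points are libraries, bars are the mean ± SD, sh-NC in blue and sh-CLGN in red (n = 3 each), and each panel starts at 0. The groups do not overlap in any panel, most narrowly for CFLAR to CASP8, where the nearest libraries are at 0.554 and 0.552.

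TNFRSF1A (chr12:6328757-6342114, minus strand), the main receptor for TNF, was 28.4, 27.8 and 27.0 FPKM in the sh-NC libraries and 17.6, 18.1 and 18.96 FPKM in the sh-CLGN libraries. The groups were well separated. On the log2 scale TNFRSF1A changed by -0.58 (SE 0.049, limma adjusted p = 3.47e-05), reached in the downward direction by 13.9% of tested genes. With quantile normalization or GC correction the change was -0.34. TNFRSF21 (chr6:47231532-47309905, minus strand) was 33.5, 36.8 and 34.8 FPKM in the sh-NC libraries and 29.2, 30.8 and 32.1 FPKM in the sh-CLGN libraries. The highest sh-CLGN library came close to the lowest sh-NC library. The log2 fold change of TNFRSF21 was -0.18 (SE 0.057, limma adjusted p = 0.0204), but it was 0.10 with quantile normalization and 0.0045 with scaling by read totals, so its direction depended on the scaling. In all, 11 of the 19 alternatives kept its call. It was also lost after rescaling to TPM (-0.06), with median-ratio scaling over tested genes (-0.08), with GC correction (-0.01) and without sh-NC replicate 2 (-0.15), sh-CLGN replicate 1 (-0.15) or sh-CLGN replicate 2 (-0.19).

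The ratio of TNFRSF1A to TNFRSF21 is free of library scaling as well. It was 0.848, 0.754 and 0.776 in the sh-NC libraries and 0.604, 0.589 and 0.590 in the sh-CLGN libraries. The mean went from 0.793 ± 0.0494 to 0.595 ± 0.00851 (SD, n = 3), with no overlap and an exact permutation p = 0.1. Relative to TNFRSF21, transcripts of the TNF receptor were thus fewer in each sh-CLGN library.

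FAS (chr10:88990582-89015785, plus strand), the receptor for FAS ligand, was close to absent from these libraries. It had 2, 0 and 1 reads in the sh-NC libraries and 10, 16 and 9 reads in the sh-CLGN libraries, or at most 0.0337 and 0.229 FPKM. Every sh-CLGN library was above every sh-NC library. All 3 sh-NC libraries were under the floor of 3 reads, so the size of the difference is poorly known. From 3 reads against 35, the ratio of levels was 10.4, with an exact 95% interval of 3.27 to 52.7 that covers counting error only. Such a separation was common among genes this low, since 32.6% of the 9013 genes under the filter with at least 10 reads in all showed it. ACTA2, which overlaps FAS by 758 bases on the other strand, had 1 to 5 reads per library, and whether counting used the strand is not given in the sources used here.

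**Figure D3:**
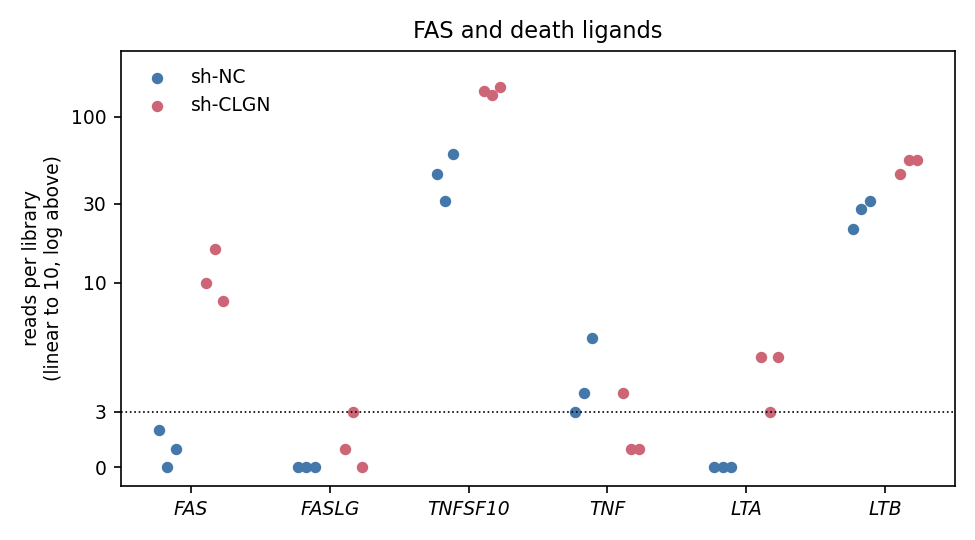
Reads per library of FAS and of the ligands FASLG, TNFSF10, TNF, LTA and LTB. Points are libraries, sh-NC in blue and sh-CLGN in red (n = 3 each); the axis is linear to 10 reads and logarithmic above, and the dotted line is the floor of 3 reads. FAS, TNFSF10, LTA and LTB lie higher in each sh-CLGN library.

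The ligands in the plot of reads per library were low in level. TNFSF10 (TRAIL) was 0.929, 0.611 and 1.12 FPKM in the sh-NC libraries and 2.44, 2.39 and 2.69 FPKM in the sh-CLGN libraries. It rose in sh-CLGN, with a log2 fold change of 0.90 (SE 0.114, limma adjusted p = 0.000249), while TNFRSF10B fell. The size of this rise depended on the pseudocount and scale, with 1.44 at a pseudocount of 0.1 and 1.53 with voom on reads. LTB, a subunit of lymphotoxin, also rose, from 21 to 31 reads in sh-NC to 45 to 55 reads in sh-CLGN (log2 fold change 0.48, range 0.34 to 0.78 over the alternatives, limma adjusted p = 0.00403). TNF had 3 to 7 reads in sh-NC and 1 to 4 reads in sh-CLGN. FASLG had 0 reads in sh-NC and at most 3 in sh-CLGN. LTA had 0 reads in each sh-NC library and 6, 3 and 6 reads in the sh-CLGN libraries, at least 1.48-fold higher against the floor of 3 reads per library.

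RIPK1, the kinase that joins TNFRSF1A to NF-kB signaling and to cell death, had the largest fall of the 9 tested members. It lies at chr6:3063991-3115187 on the plus strand. It was 13.1, 12.4 and 12.6 FPKM in the sh-NC libraries and 5.41, 5.05 and 4.63 FPKM in the sh-CLGN libraries, from 772, 767 and 826 against 388, 350 and 316 reads. The highest sh-CLGN library was well under the lowest sh-NC library. The mean went from 12.7 ± 0.339 to 5.03 ± 0.390 FPKM (SD, n = 3), a log2 fold change of -1.19 (SE 0.063, limma adjusted p = 4.79e-06). Of all tested genes, 1.64% had a change at least as far below 0, and the value ranged from -1.34 to -1.02 over the alternatives. CLGN, the gene targeted, changed by -1.31 on the same scale.

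The sequence that the hairpin targets was compared with the members, since RIPK1 fell nearly as far as CLGN. The target lies in the coding sequence of CLGN, in exon 13 of 15, at chr4:140392328-140392346 on the minus strand (GRCh38, GENCODE 29). Both sequences below are written 5′ to 3′, and the capitals mark the run of 10 bases that they share.
hairpin target in CLGN: cgacatatgTATACCACAA
RIPK1 transcript end: tttaaaataaaaattTATACCACAA
The shared run is the one that would pair with positions 1 to 10 of the guide strand, counted from its 5′ end. In RIPK1 it lies at chr6:3115178-3115187 in the 3′ UTR, as the last 10 bases of 1 of the 2 basic coding transcripts annotated. Gene-level values do not show which of these transcripts the cells made. Of 10868 tested genes with an annotated 3′ UTR of at least 50 bases, 27 (0.248%) held this run. Of these 27, 19 were lower and 3 were higher, beside 39.0% lower and 26.7% higher over all tested genes. RIPK1 is 1 of the 27 and 1 of the 3 that were lower past both thresholds, beside 3.19% over all tested genes. The median log2 fold change was -0.30 over the 27. It was -0.12 over the genes of the 10868 without the 7 bases that pair with guide positions 1 to 7. Over all tested genes, with or without such a 3′ UTR, it was -0.08. The shares given beside the counts were likewise over all tested genes. The search was made after the value of RIPK1 was known, and the run of 10 bases was the longest match in RIPK1. RIPK1 thus fixed the set in which it is counted, and its own place there adds no support. The part of this match in the fall of RIPK1 was not tested.

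The other members gave little of this kind. Shorter sites of 7 bases were searched as ACCACAA, which pairs with guide positions 1 to 7, TACCACA, which pairs with 2 to 8, and ATACCAC, which pairs with 3 to 9. Any of them was present in 21.0% of the 10868 genes and in 2 of the 10 members. These were RIPK1, where all 3 overlap in the run above, and CFLAR, with 6 sites in a 3′ UTR of 12714 bases. TNFRSF10B, which fell almost as far as RIPK1, had none in its 2538 bases. TNFRSF1A had none in 648 bases.

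**Figure D4:**
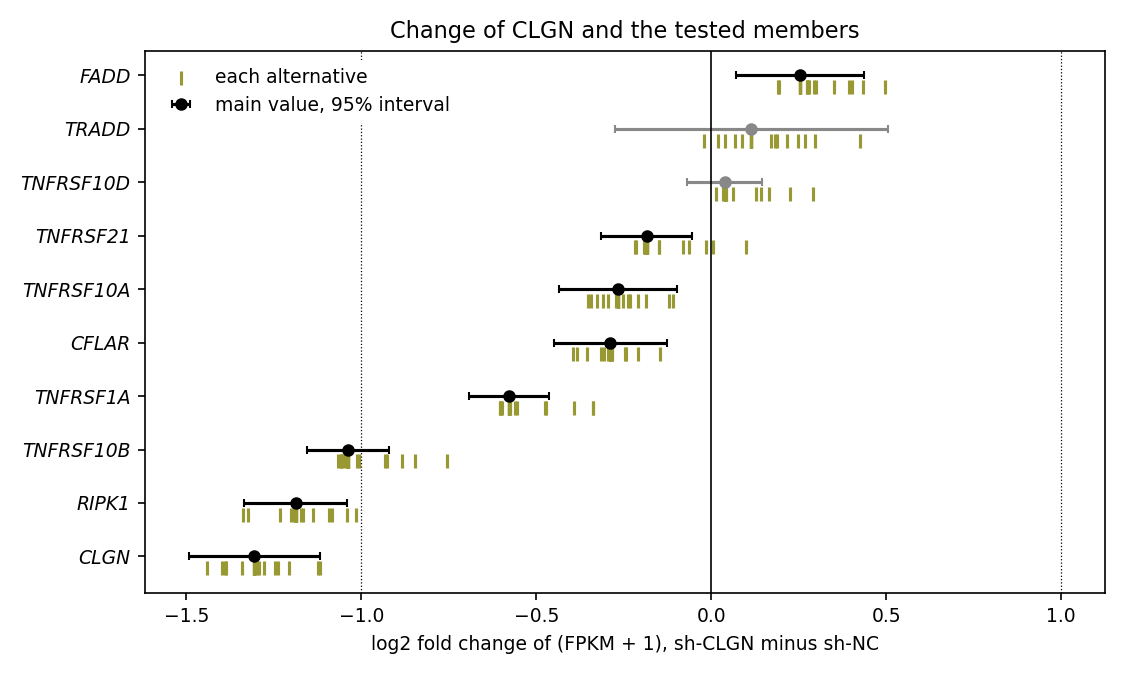
Log2 fold change of FPKM + 1, sh-CLGN minus sh-NC, for CLGN and the 9 tested members. Dots and bars are the limma value and its 95% interval, black where the adjusted p was at most 0.05 and grey where it was not; ticks under each are the values of the 19 alternatives, and dotted lines mark -1 and 1. The ticks of RIPK1 lie between -1.34 and -1.02, while those of TNFRSF21 and TRADD cross 0.

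The plot of changes sets each member beside its alternatives. FADD (chr11:70203163-70207390, plus strand), the adaptor shared by FAS and the TRAIL receptors, was the 1 member called higher. It was 9.93, 10.2 and 8.78 FPKM in the sh-NC libraries and 10.9, 11.3 and 12.9 FPKM in the sh-CLGN libraries. The groups did not overlap, although the gap between them was small. The log2 fold change was 0.25 (SE 0.079, limma adjusted p = 0.0218). It stayed above 0 in the 19 alternatives but lost the call in 4, among them those without sh-NC replicate 3 (0.19) and without sh-CLGN replicate 3 (0.19), and was 0.40 to 0.50 under TPM, quantile or read-total scaling and GC correction.

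TRADD (chr16:67154180-67160298, minus strand), the adaptor of TNFRSF1A, was 1.87, 2.94 and 1.54 FPKM in the sh-NC libraries and 2.43, 1.88 and 2.68 FPKM in the sh-CLGN libraries, from 61 to 111 reads. The groups overlapped widely. Its log2 fold change was 0.11, with a 95% interval of -0.28 to 0.50 (limma adjusted p = 0.572), an interval that holds changes in either direction. Its sign turned to -0.02 without sh-NC replicate 3, and after correction for GC content it was called higher at 0.42. FBXL8, which overlaps TRADD by 368 bases on the other strand, had 15 to 44 reads per library.

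CFLAR (chr2:201116104-201176687, plus strand), the inhibitor at the head of the caspase cascade, was 3.05, 3.12 and 3.11 FPKM in the sh-NC libraries and 2.47, 2.15 and 2.43 FPKM in the sh-CLGN libraries. Each sh-CLGN library was lower. Its log2 fold change was -0.29 (SE 0.070, limma adjusted p = 0.00699), and the call was lost after rescaling to TPM (-0.24) and after scaling by read totals (-0.15). Against CASP8, which CFLAR restrains, the ratio of FPKM was 0.642, 0.664 and 0.554 in the sh-NC libraries and 0.505, 0.459 and 0.552 in the sh-CLGN libraries. The means were 0.620 ± 0.0585 and 0.505 ± 0.0465 (SD, n = 3; exact permutation p = 0.1), and the nearest libraries almost met. The deposited gene length was 1.54 times the longest principal transcript for CFLAR and 4.45 times for CASP8, so the level of this ratio depends on the isoforms made.

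CFLAR is a known target of NF-kB, and 1 of its 4 promoter windows is printed because it held a match to the NF-kB consensus. The other windows of CFLAR held none. RefSeq promoter windows, from 250 bases before to 50 after a start (GRCh38.p14), were read for 6 of the 10 members, with 13 windows in all. TRADD, TNFRSF10A, TNFRSF10B and TNFRSF10D were not among the 6. The match is in capitals, on the plus strand, and starts 97 bases before the start site.
CFLAR promoter, chr2:201118466-201118765: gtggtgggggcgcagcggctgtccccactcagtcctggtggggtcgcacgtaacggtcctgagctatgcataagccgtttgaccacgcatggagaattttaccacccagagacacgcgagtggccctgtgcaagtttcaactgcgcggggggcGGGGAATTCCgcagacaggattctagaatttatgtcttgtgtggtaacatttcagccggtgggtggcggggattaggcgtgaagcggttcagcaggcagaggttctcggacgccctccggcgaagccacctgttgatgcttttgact
Of the 13 windows, 2 held such a match on either strand, the one above and 1 of the 3 windows of FAS. The share over all 35116 windows was 11.3%. The motif GGGCGG, bound by SP1, was in 10 of 13 windows against 45.0% of all. Overlapping windows of FAS and of RIPK1 share matches, so the 13 windows are not separate units and the shares are not compared further. The GGGCGG match in the CFLAR window above overlaps the start of the NF-kB match. The ATF4 motif TGATGNAA and the E2F motif TTTNGCGC were in 0 of 13 windows, against 3.62% and 1.79% of all. RIPK1, the member with the largest fall, had 5 GGGCGG matches in its 3 windows and no NF-kB match. Its windows overlap in part, and a match that lies in the overlap was counted in each window. A match is a description of these letters and shows no binding.

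The order of levels within each group shifted at 2 places. In sh-NC it ran, from high to low, TNFRSF10B, TNFRSF21, TNFRSF1A, TNFRSF10D, RIPK1, FADD, TNFRSF10A, CFLAR, TRADD and FAS, and the ranges of FPKM of neighbours did not overlap. In sh-CLGN, TNFRSF10D stood above TNFRSF1A and FADD above RIPK1, again without overlap of their ranges. There TRADD, at 1.88 to 2.68 FPKM, could not be ordered against CFLAR (2.15 to 2.47 FPKM) or TNFRSF10A (2.48 to 2.79 FPKM). The order also rests on the deposited gene lengths, such as 22529 bases for CFLAR, whose principal transcripts were 2128 and 14672 bases. In sh-CLGN the mean of TNFRSF10B was 35.9 FPKM, near the 30.7 FPKM of TNFRSF21, whereas in sh-NC it was 74.7 against 35.0 FPKM.

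The genes around the members were read from 8 lists with 82 rows in all, 62 of which were tested. Of these, 17 were higher, 27 were lower and 18 did not pass, with a median of -0.13, beside the 26.7% higher and 39.0% lower over all tested genes. The plot of the 8 lists shows the tested genes of each, and no difference between lists was tested. Ligands, other receptors and decoys, necroptosis, and inhibitors of apoptosis had 2 tested genes each.

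**Figure D5:**
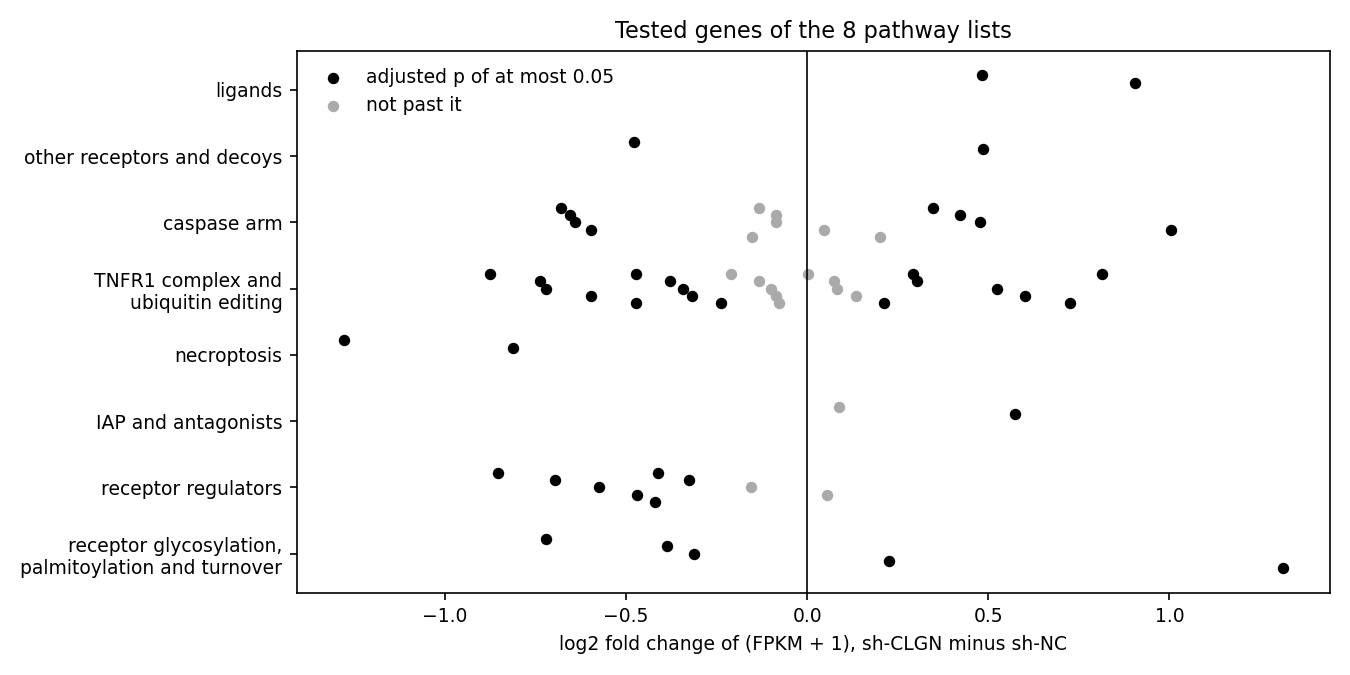
Log2 fold change of FPKM + 1, sh-CLGN minus sh-NC, of the 62 tested genes in 8 lists around the members. Each point is 1 gene, black where the limma adjusted p was at most 0.05 and grey where it was not. Of the 9 receptor regulators 7 are black and below 0, while the caspase arm has 4 black above and 4 black below 0. Over all tested genes 39.0% were called lower and 26.7% higher.

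Transcription factors known to act on death receptor genes were mostly lower. Of 9 such regulators, 7 were lower, 0 higher and 2 did not pass, with a median of -0.42. Over all tested genes 39.0% were lower and 26.7% higher, with a median of -0.08. NFKB1, which encodes the p50 subunit of NF-kB, was 17.6, 19.2 and 18.5 FPKM in the sh-NC libraries and 9.87, 9.53 and 9.86 FPKM in the sh-CLGN libraries. Its groups were well apart, with a log2 fold change of -0.85 (SE 0.052, limma adjusted p = 7.52e-06). RELA, its usual partner, fell by 0.42 on the log2 scale. The stress factors ATF4 and DDIT3 (CHOP), which are known to act on TNFRSF10B, fell by 0.57 and 0.41. MYC and SP1 fell by 0.70 and 0.33, while FOXO3 (-0.15) and YY1 (0.06) did not pass. With quantile normalization DDIT3 (-0.18) and SP1 (-0.13) no longer passed, nor did SP1 with scaling by read totals (-0.14). YY1 was called higher in 5 alternatives, at 0.16 to 0.28, and without sh-NC replicate 1 FOXO3 passed as lower at -0.21. The falls of ATF4, RELA and MYC kept their calls but were as small as -0.25, -0.18 and -0.42 in some alternatives.

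Among the 14 genes of the caspase arm, 4 were higher, 4 lower and 6 did not pass (median -0.09). Over all tested genes the shares were 26.7% higher and 39.0% lower. CASP8, the initiator caspase that FADD recruits, was 4.75, 4.69 and 5.61 FPKM in the sh-NC libraries and 4.90, 4.69 and 4.40 FPKM in the sh-CLGN libraries, with overlap and a log2 fold change of -0.08 that did not pass (limma adjusted p = 0.363). BID, which carries the death receptor signal to mitochondria, fell by 0.60 on the log2 scale. PEA15, a death effector domain protein that can bind FADD, and DEDD, another protein with such a domain, fell by 0.64 and 0.68. The fall of PEA15 was -0.39 with quantile normalization.

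Of the 26 tested genes of the TNFR1 complex and its ubiquitin editing, 7 were higher, 10 lower and 9 did not pass (median -0.09). Those counts stand beside 26.7% higher and 39.0% lower over all tested genes. TRAF2, an adaptor that binds TRADD, fell by 0.60 on the log2 scale, and TAB1, an activator of the kinase MAP3K7 (TAK1), fell by 0.74. MAPKAPK2, a kinase that phosphorylates RIPK1, fell by 0.72. With GC correction these 3 changes were -0.33, -0.48 and -0.48, each still called. TAX1BP1, a partner of the ubiquitin editor TNFAIP3 (A20), rose by 0.60. TNFAIP3 itself was 15.6 to 16.4 FPKM in sh-NC and 13.5 to 15.5 FPKM in sh-CLGN and did not pass. It was not among the genes that the rule for names took, and was chosen after its values were seen, as was BIRC2 (cIAP1), a ubiquitin ligase for RIPK1, which rose by 0.81.

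In the necroptosis list, RIPK3, MLKL and ZBP1 were hardly expressed. RIPK3, which RIPK1 activates, had 0 to 1 read per library, its effector MLKL had 3 to 9, and ZBP1 had 0 in each library, all but MLKL under the floor of 3 reads. Both tested genes of this list were lower, as were 39.0% of all tested genes. TICAM1 (TRIF), an adaptor that binds RIPK1, was 10.9, 11.3 and 8.43 FPKM in the sh-NC libraries and 3.94, 3.05 and 3.82 FPKM in the sh-CLGN libraries. Its change of -1.28 (SE 0.119, limma adjusted p = 5.27e-05) stands beside -1.19 for RIPK1. PGAM5, a mitochondrial phosphatase, fell by 0.81 on the log2 scale.

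The remaining lists were small after the filter. Of the inhibitors of apoptosis and their antagonists, HTRA2, a mitochondrial protease that binds such inhibitors, rose by 0.57, and XIAP, a direct inhibitor of caspases, was at 0.09 and did not pass. XIAP was called higher in 4 alternatives, at 0.17 to 0.26, and was at -0.06 with GC correction. Of 5 tested genes for receptor glycosylation, palmitoylation and turnover, 2 were higher and 3 lower, beside 26.7% and 39.0% of all tested genes. CAV1, the main protein of caveolae, rose by 1.31 on the log2 scale, from 4.40 to 4.83 FPKM in sh-NC to 12.7 to 12.8 FPKM in sh-CLGN. MARCHF8, a ubiquitin ligase that acts on TNFRSF10A, fell by 0.72, ZDHHC7, a palmitoyltransferase of FAS, fell by 0.39, and the ubiquitin ligase CBL fell by 0.31. The call of CBL was lost in 5 of the 19 alternatives, among them those with scaling by read totals (-0.14) and without sh-CLGN replicate 1 (-0.25), and that of ZDHHC7 with quantile normalization (-0.12). GALNT14, which glycosylates TRAIL receptors, had 0 reads in each library, and GALNT3 was under the filter at 0.234 to 0.262 FPKM in sh-NC and 0.508 to 0.687 FPKM in sh-CLGN.

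Other receptors of the family ranged widely in level. TNFRSF11B (osteoprotegerin), a soluble decoy that binds TRAIL as well as its main ligand, rose from 7.63 to 8.32 FPKM in sh-NC to 11.1 to 12.0 FPKM in sh-CLGN (log2 fold change 0.49, limma adjusted p = 0.000179). TNFRSF12A, the receptor for TNFSF12 (TWEAK), which lacks a death domain, fell from 45.4 to 53.0 FPKM to 34.6 to 34.7 FPKM (log2 fold change -0.48, limma adjusted p = 0.000278). The change of TNFRSF12A was -0.18 with GC correction and -0.20 with quantile normalization, still past the threshold. TNFSF12 had 9 to 13 reads in sh-NC against 6 to 13 in sh-CLGN, and TNFSF15 had 16 to 27 and 30 to 39. TNFRSF25, a death receptor for TNFSF15, had 31 to 37 reads in sh-NC against 40 to 55 in sh-CLGN. At 0.496 to 0.795 FPKM over the 6 libraries, it was under the filter. TNFRSF1B, NGFR and EDAR had at most 12 reads in any library. TNFRSF6B and EDA2R had 0 reads in all 6.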

How the data were processed

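Messenger RNA of 6 Hep-G2 libraries was sequenced from NEBNext Ultra preparations. The submitters' processing notes name HISAT2 2.0.5, featureCounts and GRCh38. Strandedness, filters, annotation and a test are not given in the sources used here. The authors deposited FPKM values per gene with gene lengths, and all 58735 gene positions equalled GENCODE 29. FPKM times length gave whole reads for 100% of values, within 0.01 of a read. The library sizes behind the FPKM were 0.933 to 0.953 times the reads for sh-NC and 1.07 to 1.08 times for sh-CLGN.

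Groups were taken from the labels. Log2(FPKM + 1), which understates changes of low genes, was tested with limma 3.58.1 (R 4.3.3; eBayes with trend) over all 6 libraries without covariates, two-sided, with Benjamini-Hochberg adjustment. Genes needed at least 1 FPKM in at least 3 libraries. The procedure was tested on simulated data. The floor was 3 reads, and intervals on reads cover counting error only. Of 120 list rows, 119 matched by symbol and 1 by gene ID.

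The members and lists were chosen with earlier results of these data known. Named were all members, CLGN, in each list the 4 genes lowest in adjusted p, ligands and receptors under the filter, CASP8 and all receptor regulators; others were chosen after their values were seen. Results for some genes under this rule are not reported here. Alternatives covered pseudocount, filter, scaling, voom, GC content, the replicate block and leaving out each library. Python 3.11.15 was used with scipy 1.17.1, pandas 2.3.3, numpy 2.4.6 and, for figures, matplotlib 3.10.9.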

Additional observations from a re-analysis of the deposited data

Results flagged for a closer look

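Reads above the control libraries appeared in 5 genes that were under the expression filter and so outside the tested genes. In each, every sh-CLGN library was above every sh-NC library, which 32.6% of the 9013 genes under the filter with at least 10 reads also showed. The mean level in sh-CLGN was 0.166 FPKM for FAS, where sh-NC had 3 reads in all 3 libraries together. It was 0.174 FPKM for LTA, with 0 reads in sh-NC, and 0.271 FPKM for TNFSF15, against 0.193 FPKM in sh-NC. DIABLO, an antagonist of the inhibitors of apoptosis, was at 0.316 FPKM against 0.159 FPKM, and its value is uncertain since the table holds 2 genes of that symbol, both under the filter. GALNT3 was at 0.608 FPKM against 0.252 FPKM. Without the filter FAS was fitted at 0.20 on the log2(FPKM + 1) scale (limma adjusted p = 0.0187 over 33474 genes), a value that depends on the pseudocount.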

How the results depend on the processing

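RIPK1, TNFRSF10B, TNFRSF1A and CLGN kept their direction and their calls in all 19 alternatives. Against 1 member higher, there were 2 with TPM, quantile, read-total and median-ratio scaling over tested genes (the last chosen after seeing the data), 3 with GC correction and 0 with the replicate block. Against 6 members lower, there were 3 with TPM and read totals. Against 2 lower past both thresholds, there was 1 under each of these 4 scalings and under GC correction. Over all genes this count was 681 with a pseudocount of 0.1, 235 with read totals, 733 with voom and 241 with GC correction, against 417. Among CLGN, the tested members and the tested genes named by the rule above, 2 members and 3 other genes turned direction. The remaining list genes were not followed over the alternatives. TNFRSF21 was at 0.10 with quantile normalization and 0.0045 with read totals, and TRADD went from -0.0210 (without sh-NC replicate 3) to 0.296 when single libraries were left out. CASP8 was at 0.0039 with median-ratio scaling over tested genes, 0.0239 with TPM and 0.0770 with read totals, FOXO3 at 0.0242 with read totals, and XIAP at -0.0645 with GC correction. In reads not divided by gene length, the difference was -14.8 for TNFRSF10B to TNFRSF10A, 13.3 points for TNFRSF10D and -0.357 for CFLAR to CASP8, against -8.49, 15.4 and -0.115. Apart from the lengths in these ratios, the cause was not tested.

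Leaving out each library gave 0 to 1 members higher, 4 to 6 lower and 2 lower past both thresholds, and 398 to 466 genes lower past both. The ratios then differed by -9.02 to -8.08, 14.9 to 15.8 points, -0.148 to -0.0916 and -0.218 to -0.170, and CLGN by -1.39 to -1.24. Libraries with the same number did not deviate together (correlations -0.02, -0.05 and -0.15), a check that cannot show whether they were prepared together. With the replicate block 0 members were higher, FADD having lost its call. Protein identity between members was not run. Low reads limit FAS, TRADD and TNFRSF10A most.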

Other observations

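Longer runs shared with the hairpin target were rarer, and RIPK1 had none longer than 10 bases. Runs of 9 bases from guide position 1 were found in the 3′ UTRs of 88 tested genes, of which 48 were lower and 16 higher (median log2 fold change -0.24). Runs of 11 and 12 bases were found in 7 and 5 genes, of which 7 and 5 were lower, with medians of -0.40 and -0.44 and 0 past both thresholds. Over all tested genes 39.0% were lower and 26.7% higher, and 3.19% were lower past both thresholds. Runs of 8 bases were in 298 genes, with a median of -0.13, and those of 7 bases in 1224 genes, with a median of -0.12. Tested genes with a 3′ UTR of at least 50 bases but without the run of 7 also had a median of -0.12. These runs are nested, and the genes were counted after their values were known.

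The transcripts of the members ranged in GC content from 39.1% in FAS to 65.0% in TRADD. Across 13068 genes the rank correlation of the log2 fold change with GC content was -0.32, a description across genes of the same libraries.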
